A study of Homo sapiens with 12 samples.

Results

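H3K27ac, the acetylated form of lysine 27 on histone H3, was followed around 2 genes, AGO2 and PHLDB2, in HCT116 cells, an established human colorectal cancer cell line. Every H3K27ac peak within 100 kb of either gene body was taken from the peak lists of 6 CUT&RUN libraries. Both genes were chosen because a region beside or inside them held a high rank in untreated cells and a low rank under the MEK inhibitor cobimetinib, so the ranks of those regions are given as a description and are not tested. Peaks of all 6 libraries that lay within 100 bp of each other were joined into 1 region, which gave 346042 regions in the genome and 227 at these loci. Of the 227, 113 belonged to the AGO2 window of 315.5 kb and 114 to the PHLDB2 window of 444.0 kb. A region was called eligible when it held a peak among the 20000 highest of at least 1 library, which left 38218 regions in the genome, 11 at AGO2 and 31 at PHLDB2.

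In CUT&RUN an antibody guides a nuclease to marked chromatin and the DNA that is released is sequenced. The 3 conditions were untreated cells, cells given cobimetinib at 1 μM for 24 h and cells given the cytokine TNFα at 100 ng/ml for 24 h, with 2 H3K27ac libraries in each. The IgG libraries of the same conditions are not analysed here, and nothing in the labels states that replicates came from separate cultures. Each peak carries a score, taken to be that of the peak caller. By the study's methods, each list joins peaks called in paired-end and in single-end mode and keeps the higher score. Scores and widths are thus those of joined calls. Peaks were compared by their rank within their own list, where rank 1 is the highest score and tied scores share their mean rank. The lists held 69813 to 124771 peaks. The second untreated library stood apart in width, with a median of 380 bp over its 20000 highest peaks against 922 to 1265.5 bp in the other 5. No read counts accompany the lists, so the sequencing depth is unknown. With 2 libraries against 2, an exact permutation test cannot go below a two-sided p of 0.333, and no test was made. A difference between conditions was called when the ranks of both libraries of one condition lay beyond both ranks of the other.

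AGO2 encodes the Argonaute protein that binds microRNAs and small interfering RNAs and that can itself cut the paired messenger RNA. PHLDB2, also named LL5β, is a membrane-bound adaptor that helps to anchor microtubule ends at the cell cortex near adhesions. MEK relays signals from RAS and RAF to ERK, and ERK raises the amount and activity of the AP1 transcription factors, dimers of FOS and JUN family proteins that bind the word TGACTCA or TGAGTCA. TNFα acts through its receptors on NF-κB and on the kinases that feed AP1. An enhancer is a stretch of DNA that can raise transcription from a promoter at a distance, and H3K27ac marks both enhancers and promoters while they are in use.

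The PHLDB2 gene (ENSG00000144824.21) lies on the plus strand of chromosome 3 at 111732497 to 111976517 (hg38), and its canonical transcript starts at 111859265. The lead region, defined as the region of the locus in the top 20000 of both untreated libraries with the most negative rank shift under cobimetinib, lay in an intron of PHLDB2 at 111922708 to 111924725, which is 64.45 kb past the canonical start and 11098 bp from the nearest start of any PHLDB2 coding transcript. Its central 1000 bp held 1 AP1 word (TGACTCA, at 111923529 to 111923535) and 1 NF-κB word (GGG, any 2 bases, then TTTCC, at 111923576 to 111923585), with 40 bp between them. The 177 bases around both words are shown because they lie in the region with the most negative cobimetinib shift at this locus. The sequence is chr3:111923469-111923645, plus strand, with both words in capitals.
PHLDB2 lead: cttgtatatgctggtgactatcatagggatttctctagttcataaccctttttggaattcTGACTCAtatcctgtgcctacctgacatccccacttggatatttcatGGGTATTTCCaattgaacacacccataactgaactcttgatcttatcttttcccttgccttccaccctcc
Both words with starts at most 100 bp apart were found in 179 of all 38218 eligible regions, a share of 0.468%, and in 0.554% of the 27089 regions over 1 kb from any coding start. The pair and its 100 bp limit were not part of the plan, which covered single words, so these shares are a description. A match describes the letters only and is no evidence of binding.

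In untreated cells the PHLDB2 lead region ranked 395.5 and 2951. With cobimetinib its ranks were 68354.5 and 61369, whereas TNFα gave 92 and 92.5. The 3 conditions did not overlap: both TNFα libraries ranked it highest and both cobimetinib libraries lowest. The geometric mean rank was 60.0 times deeper in the list under cobimetinib than in untreated cells, and 11.7 times deeper in untreated cells than under TNFα. The rank shift, the mean log2 rank of the untreated libraries minus that of the treated libraries, was -5.91 ± 1.45 (SE, n = 2 per condition) for cobimetinib and 3.55 ± 1.45 for TNFα. Without the second untreated library the TNFα shift was 2.1 and the cobimetinib shift -7.36, and without the first they were 5.00 and -4.46. Among the 10290 regions in the top 20000 of both untreated libraries, this cobimetinib shift stood 1st from the negative end. The peak was still listed under cobimetinib, at 64.3% and 87.9% of the way down the list.

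The width of the PHLDB2 lead moved with its rank. Peaks covered 1487 and 667 bp in the untreated libraries, 423 and 546 bp under cobimetinib and 1740 and 1979 bp under TNFα. The means were 1077 ± 580, 484.5 ± 87.0 and 1859.5 ± 169 bp (SD, n = 2). The cobimetinib values lay below both others, and the untreated pair was far apart, with the smaller value in the library whose peaks were narrow throughout.

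**Figure D1:**
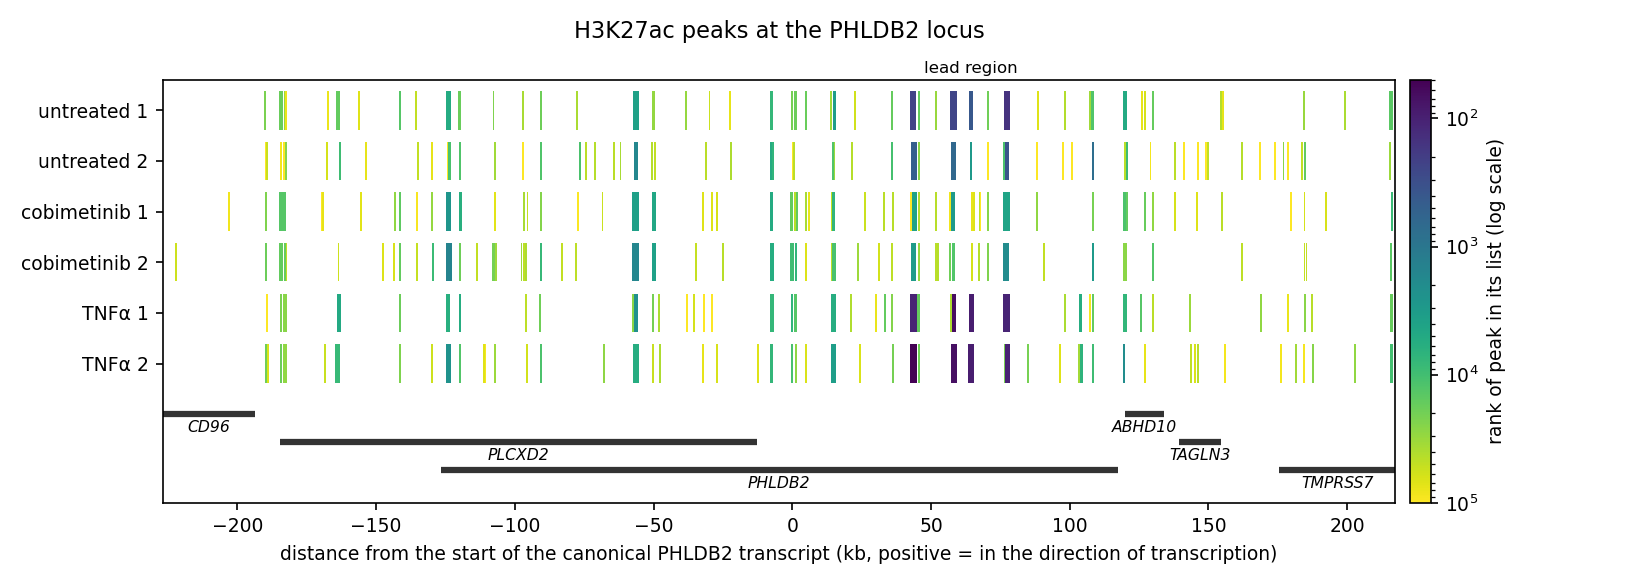
Peaks of the 6 H3K27ac libraries (rows) across the PHLDB2 window, by distance in kb from the canonical start, coloured by rank in their list on a log scale, with short peaks widened to be visible and protein-coding gene bodies below. The lead region and 3 regions beside it are dark in both untreated rows and darkest in both TNFα rows, while the cobimetinib rows are paler there.

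The lead of PHLDB2 had the most negative cobimetinib shift of a group of 4 strong regions inside the same gene. The region 20.87 kb before it, at 111901576 to 111904108, ranked 221.5 and 472 in untreated cells, 3989.5 and 3180 under cobimetinib and 104 and 43 under TNFα. The region 6.54 kb before it, at 111915858 to 111918498 and overlapping an untranslated exon of PHLDB2, ranked 240 and 633, then 3026 and 12671, then 65 and 68. The region 12.76 kb after it, at 111935262 to 111937697, ranked 150.5 and 360, then 4278 and 1975, then 106 and 100. In each of these 3 the conditions kept the same order without overlap: TNFα above untreated above cobimetinib. Their cobimetinib shifts were -3.46 ± 0.57, -3.99 ± 1.25 and -3.64 ± 0.84, and their TNFα shifts were 2.27 ± 0.84, 2.55 ± 0.70 and 1.18 ± 0.63. These 3 regions stayed in the top 20000 of every library, unlike the lead. Their untreated ranks were also higher in both libraries than those of the lead, so the region that fell furthest was not the strongest of the group.

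Width separated the lead from the regions beside it. The region 20.87 kb before the lead covered 2170 and 2025 bp in untreated cells, 1958 and 1760 bp under cobimetinib and 2466 and 2532 bp under TNFα. The region 12.76 kb after it covered 2212 and 2036 bp, then 2325 and 2257 bp, then 2414 and 1902 bp. The first kept the order of the ranks with modest differences, and the second was wider in both cobimetinib than in both untreated libraries although it ranked lower there. The region 6.54 kb before the lead covered 2272 and 1814, 1775 and 1838, and 2056 and 1879 bp, and the conditions overlapped.

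**Figure D2:**
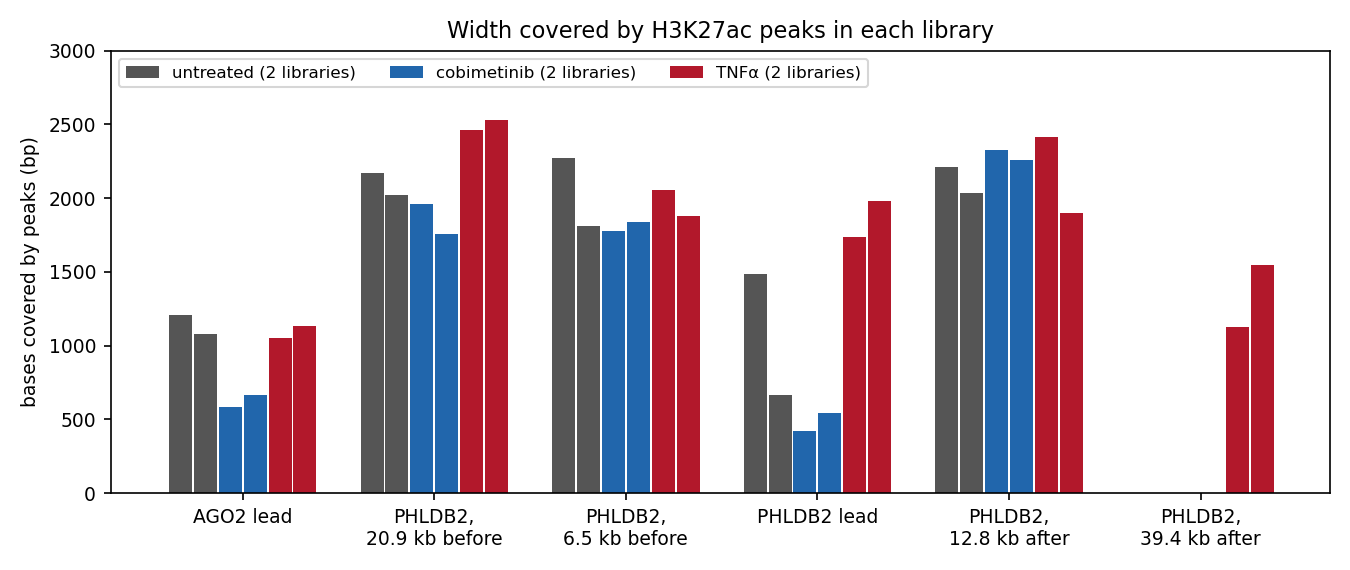
Bases covered by H3K27ac peaks in each library (bars, 2 per condition) for the AGO2 lead, the PHLDB2 lead and 4 other PHLDB2 regions, by distance from the PHLDB2 lead. Both leads are narrowest under cobimetinib, and the region 39.4 kb after the PHLDB2 lead is covered under TNFα only.

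AP1 words were not shared by the whole group. Neither the region 20.87 kb before the lead nor the one 6.54 kb before it held either form anywhere in its length, and the region 12.76 kb after it held 1. At the locus 7 of 31 eligible regions, or 22.6%, held the AP1 word on either strand within their central 1000 bp, against 32.5% of all eligible regions and 40.0% of those over 1 kb from a coding start. The NF-κB word was found in 2 of the 31, against 5.15% of all eligible regions. The windows below are shown because they place the word in 1 region that ranked lower under cobimetinib, in 1 with peaks under TNFα only and in 1 that ranked higher under cobimetinib. The capitals mark the AP1 word and all 3 are given on the plus strand. They lie at chr3:111936720-111936766, chr3:111963547-111963593 and chr3:111808636-111808682.
PHLDB2, 12.76 kb after the lead: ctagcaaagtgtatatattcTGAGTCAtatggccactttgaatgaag
PHLDB2, 39.39 kb after the lead: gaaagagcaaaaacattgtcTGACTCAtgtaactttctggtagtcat
PHLDB2, 114.53 kb before the lead: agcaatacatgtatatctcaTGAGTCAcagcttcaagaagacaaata
The same word thus stood in regions that differed in direction. In the last of them it lay outside the central 1000 bp.

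Under cobimetinib 8 of the 30 neighbours of the PHLDB2 lead, or 26.7%, ranked lower in both libraries than in both untreated libraries, against 11.4% of all eligible regions of the genome. Another 5 ranked higher, or 16.7%, against 19.5%. Of the 5 neighbours within 25 kb of the lead, a distance chosen after the values were seen, 4 ranked lower, and of the 25 farther away 4 did. Across the genome, 4366 regions called lower had 6719 neighbours within 25 kb, of which 16.2% were themselves lower. The median cobimetinib shift over the 30 neighbours was 0.16, the same as the median of 0.16 over all eligible regions. The 4 regions near the lead thus ranked lower in a window whose median shift equalled that of the genome. The excess over the genome share rested on both untreated libraries: without the first, 10 of 28 neighbours were lower, or 35.7%, against 36.7% of all eligible regions, and without the second 12 of 28, or 42.9%, against 37.9%. Omitting 1 library also raised the count of neighbours higher under cobimetinib from 5 to 10 without the first untreated or the second cobimetinib library and to 9 without the first cobimetinib library, with genome shares of 44.2%, 29.8% and 29.7%.

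The other PHLDB2 neighbours that ranked lower under cobimetinib were weaker. The region 28.44 kb before the lead ranked 16519 and 10539.5 in untreated cells, 43559.5 and 46531.5 under cobimetinib and 24212.5 and 20310 under TNFα. It ranked lower under TNFα as well, with a shift of -0.75. The region 18.94 kb before the lead ranked 16287.5 and 26242, then 42203 and 29983, then 16693.5 and 19263. Far from the lead, 228.16 kb before it in an intron of the neighbouring gene PLCXD2, a region ranked 15886 and 9374 in untreated cells, had no peak in 1 cobimetinib library and rank 55658.5 in the other, and ranked 4950 and 8445.5 under TNFα. It was the only neighbour beyond 25 kb of the lead with the full order of cobimetinib below untreated below TNFα. In all, 4 of 30 neighbours, or 13.3%, showed this order, against 2.00% of all eligible regions.

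TNFα placed 6 of the 30 PHLDB2 neighbours, above both untreated libraries, against 17.1% in the genome, and 2 of 30 below, against 9.56%. It placed 9 of 30 above both cobimetinib libraries, or 30.0%, against 20.5%, and 7 below, or 23.3%, against 22.0%. The 6 higher neighbours became 13 without the first untreated library (genome share 43.9%), 12 without the first TNFα library (28.2%) and 10 without the second (28.4%). The 2 lower ones became 6 and 9 without the first and the second untreated library, where the genome shares were 35.8% and 38.4%, and 5 and 6 without the first and the second TNFα library, where they were 16.7% and 15.3%. One intronic region, 39.39 kb after the lead at 111962331 to 111963885, had no peak in any untreated or cobimetinib library and ranked 5512 and 6793.5 under TNFα, where it covered 1124 and 1545 bp. The opposite was seen 6.03 kb after the lead, where a weak region ranked 19124.5 and 123447 in untreated cells and 25227 and 23257 under cobimetinib, and had no peak in either TNFα library.

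Several PHLDB2 regions ranked higher under cobimetinib. The largest shift was 114.53 kb before the lead, within introns of the overlapping PHLDB2 and PLCXD2 genes at 111808253 to 111810112, with ranks of 28915 and 42366 in untreated cells, 4692 and 3790 under cobimetinib and 20464.5 and 53016.5 under TNFα. Its shift was 3.05 ± 0.32. A region at 111734567 to 111736477, which lies 2070 bp past the most distal PHLDB2 start, ranked 5261 and 11168, then 2620.5 and 1516.5, then 5961 and 2385.5, a cobimetinib shift of 1.94 ± 0.67. It held the best cobimetinib rank of the whole locus in both libraries. In a PLCXD2 intron 2470 bp upstream of that distal start, a region 194.24 kb before the lead had no peak in 1 untreated library and rank 75834.5 in the other, against 30214 and 8982.5 under cobimetinib. This region and the one 114.53 kb before the lead were eligible only through cobimetinib libraries. Their higher rank under cobimetinib was thus in part set by the filter.

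The PHLDB2 promoter moved opposite to the lead under cobimetinib and in the same direction under TNFα. The region over the canonical start, at 111858555 to 111860912, ranked 18081 and 45067.5 in untreated cells, 15529 and 7208.5 with cobimetinib and 7303 and 11084.5 with TNFα. Each treatment ranked it higher than both untreated libraries, with shifts of 1.43 ± 0.86 and 1.67 ± 0.72, while its lower untreated rank came from the library with narrow peaks. For comparison, among 11291 protein-coding genes with an eligible region within 1 kb of a start, cobimetinib ranked the promoter higher in 22.2% and lower in 12.4%, and TNFα ranked it higher in 12.9% and lower in 14.1%.

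Promoters of the genes around PHLDB2 moved in both directions. That of ABHD10, a mitochondrial hydrolase gene, lay 55.64 kb after the lead and ranked 5017.5 and 8823 in untreated cells, 11530 and 26781 under cobimetinib and 7546 and 2037.5 under TNFα, a cobimetinib shift of -1.40. That of PLCXD2, a gene of a phospholipase-like protein, ranked 17588.5 and 26242, then 13564.5 and 15927, then 21565.5 and 18338.5, a cobimetinib shift of 0.55. A weak region near a start of TMPRSS7, which encodes a membrane serine protease, ranked 30515.5 and 16075.5 in untreated cells and 61357 and 51434.5 under cobimetinib. The starts of TAGLN3 had no eligible region. The TMPRSS7 region, at 112043438 to 112044102, did not cover the canonical start at 112034736 and was eligible through the second untreated library only. Thus the ABHD10 promoter and this weak region had ranks below untreated under cobimetinib, and the PLCXD2 and PHLDB2 promoters above it.

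Regions of the PHLDB2 locus whose ranks overlapped between cobimetinib and untreated cells included strong ones. The region 120.9 kb before the lead ranked 3914.5 and 1704.5 in untreated cells, 3686.5 and 1656 under cobimetinib and 2204 and 5775.5 under TNFα. The region 71.81 kb before the lead, upstream of the canonical start, ranked 7912 and 5234.5, then 5170.5 and 5476, then 8005.5 and 7699. The region 49.65 kb before the lead ranked 3339 and 12386, then 7232.5 and 10817.5, then 5622.5 and 3428. In an exon of PHLDB2 43.78 kb after the lead, a region ranked 12221.5 and 754.5, then 21039 and 3026.5, then 16451.5 and 9453, so its 2 untreated and 2 cobimetinib libraries differed more within a condition than between conditions. The other 6 such regions in the top 20000 of at least 2 libraries lay 65.44 to 254.07 kb from the lead, and their cobimetinib shifts ran from 0.09 to 1.38.

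**Figure D3:**
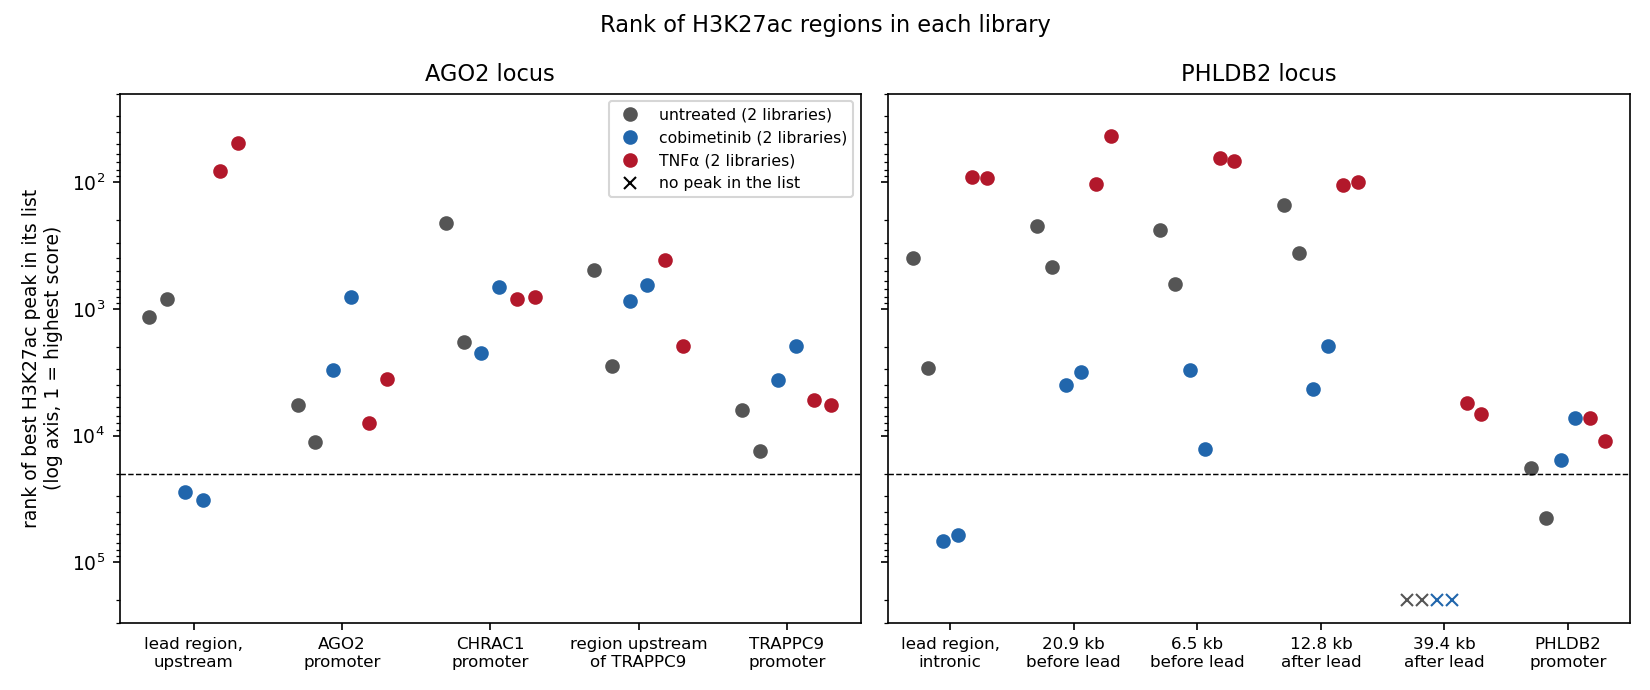
Rank of the best peak in each library (points, log axis with rank 1 at the top) for selected regions of both loci; crosses mark no peak and the dashed line is rank 20000. The order of TNFα above untreated above cobimetinib is seen at both leads and at 3 regions near the PHLDB2 lead, and is not seen at the AGO2, CHRAC1, TRAPPC9 or PHLDB2 promoters.

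The AGO2 gene (ENSG00000123908.12) lies on the minus strand of chromosome 8 at 140520156 to 140635633 (hg38). Its lead region, chosen by the same rule, was intergenic, at 140645179 to 140646549, 9546 bp upstream of the AGO2 start and between AGO2 and PTK2, the gene of focal adhesion kinase. It ranked 1158.5 and 840.5 in untreated cells, 27934.5 and 32216 under cobimetinib and 81.5 and 49 under TNFα. The 3 conditions did not overlap. The untreated pair was closer together than at the PHLDB2 lead, whereas the cobimetinib and TNFα pairs were farther apart on the log scale. The geometric mean rank was 30.4 times deeper under cobimetinib than in untreated cells, and 15.6 times deeper in untreated cells than under TNFα. The rank shifts were -4.93 ± 0.25 for cobimetinib and 3.96 ± 0.43 for TNFα (SE, n = 2 per condition). Among the same 10290 regions the cobimetinib shift stood 4th from the negative end. Under TNFα the shift of this region stood 12th from the positive end and that of the PHLDB2 lead 20th.

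Width at the AGO2 lead was lowest under cobimetinib. Peaks covered 1208 and 1079 bp in untreated cells, 583 and 666 bp under cobimetinib and 1052 and 1134 bp under TNFα, with means of 1143.5 ± 91.2, 624.5 ± 58.7 and 1093 ± 58.0 bp (SD, n = 2). Rank and width thus differed in one respect: TNFα raised the rank above both untreated libraries while the widths of those conditions overlapped. The peak was at 26.3% and 46.1% of the cobimetinib lists, against 0.0705% and 0.0529% of the TNFα lists. Its central 1000 bp held 1 AP1 word and no NF-κB word, and 2 of the 11 eligible regions of the locus, or 18.2%, held an AP1 word. The other was a weak region in an AGO2 intron, 73.5 kb from the lead, with peaks in 1 cobimetinib and 1 TNFα library only.

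**Figure D4:**
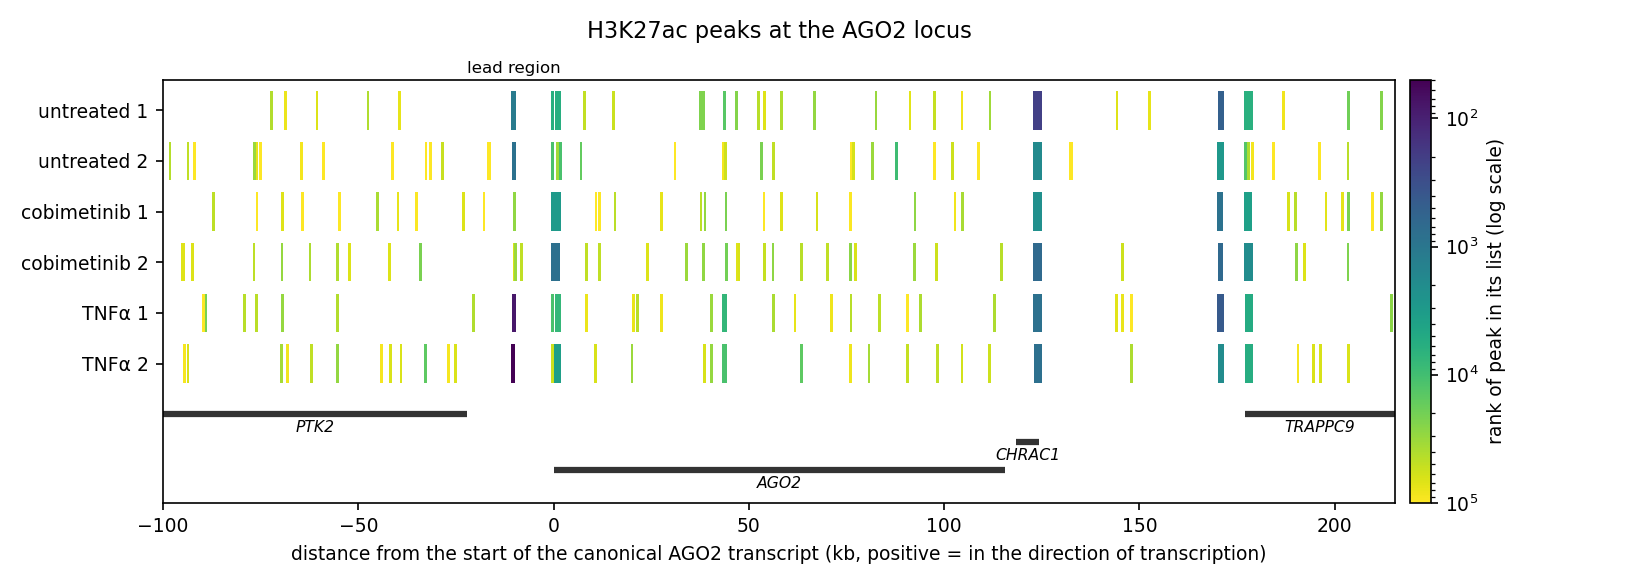
Peaks of the 6 H3K27ac libraries (rows) across the AGO2 window, by distance in kb from the AGO2 start, positive in the direction of transcription, coloured by rank on a log scale, with short peaks widened to be visible and protein-coding gene bodies below. Apart from the lead just upstream of the start, the strong regions are those of AGO2, CHRAC1 and TRAPPC9 starts and 1 region upstream of TRAPPC9, which are marked in all 6 libraries.

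None of the 10 neighbours of the AGO2 lead ranked lower in both cobimetinib than in both untreated libraries, against 11.4% of all eligible regions. Omitting the first or second untreated library made that count 3 or 4 and the genome share 36.7% or 37.9%, and omitting the second cobimetinib library made the count 1 and the genome share 17.6%. Another 2 of the 10 ranked higher under cobimetinib, against 19.5%. TNFα ranked 2 of 10 above and 1 of 10 below both untreated libraries, against 17.1% and 9.56%. It ranked 1 of 10 above and 3 of 10 below both cobimetinib libraries, against 20.5% and 22.0%. Omitting the first untreated library made the count higher under cobimetinib 4 of 9 and under TNFα 5 of 9, against genome shares of 44.2% and 43.9%, and omitting the first TNFα library made the latter 5 of 10, against 28.2%. Without the first untreated library 2 of 9 were lower under TNFα and without the second 2 of 8, against 35.8% and 38.4%. The 1 region above cobimetinib became 2 of 10 without the second cobimetinib library, 2 of 8 without the second TNFα library and 3 of 10 without the first, against 29.8%, 30.1% and 29.6%. No neighbour showed the full order of the lead, against 2.00% of all eligible regions. Here the lead stood alone, whereas at PHLDB2 it had 3 strong regions of the same order near it. With 10 neighbours, 3 of them within 25 kb, the count is a description of few regions, and the difference between the loci was not tested.

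The AGO2 promoter moved opposite to the lead under cobimetinib. The region over the AGO2 start, at 140633801 to 140636322 and 10.8 kb from the lead centre to centre, ranked 5790.5 and 11168 in untreated cells, 3026 and 804.5 under cobimetinib and 7912.5 and 3592.5 under TNFα. Its cobimetinib shift was 2.37 ± 1.07, and its TNFα ranks overlapped the untreated ranks. The region also covered more bases under cobimetinib, 2411 and 2436 bp against 2243 and 1028 bp, where the 1028 bp came from the library with narrow peaks. Reads cannot be assigned to a target promoter from these lists, and no RNA was measured in these libraries.

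Other promoters in the AGO2 window did not fall under cobimetinib. That of TRAPPC9, a subunit gene of a vesicle tethering complex, ranked 6256 and 13195.5 in untreated cells, 3639 and 1953 with cobimetinib and 5282.5 and 5691 with TNFα. Each treatment placed this promoter higher, while its deeper untreated rank came from the library with narrow peaks. That of CHRAC1, a histone-fold subunit gene of a chromatin remodelling complex, ranked 209 and 1821, then 2230 and 672, then 835.5 and 806, and all 3 conditions overlapped. PTK2 had no eligible region within 1 kb of a start inside the window. Upstream of TRAPPC9, 181.06 kb from the lead, a strong intergenic region ranked 495.5 and 2844.5, then 872 and 652, then 413 and 1950.5, with no difference called.

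Inside AGO2, besides the promoter, 1 intronic region entered the top 20000 of more than 1 library, 53.99 kb from the lead at 140591187 to 140592559. It ranked 13751.5 and 55574.5 in untreated cells. Its cobimetinib ranks were 21872.5 and 20099.5, its TNFα ranks were 7724.5 and 11269, and it was higher under TNFα than in both other conditions. It was also wider there, at 1082 and 1359 bp against 761 and 646 bp untreated. Of the 5 remaining eligible AGO2 regions, 4 had a peak in at most 2 libraries. At the far end of the window, a region in a TRAPPC9 intron ranked 19124.5 and 45067.5 in untreated cells and had no peak and rank 64541 under TNFα.

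**Figure D5:**
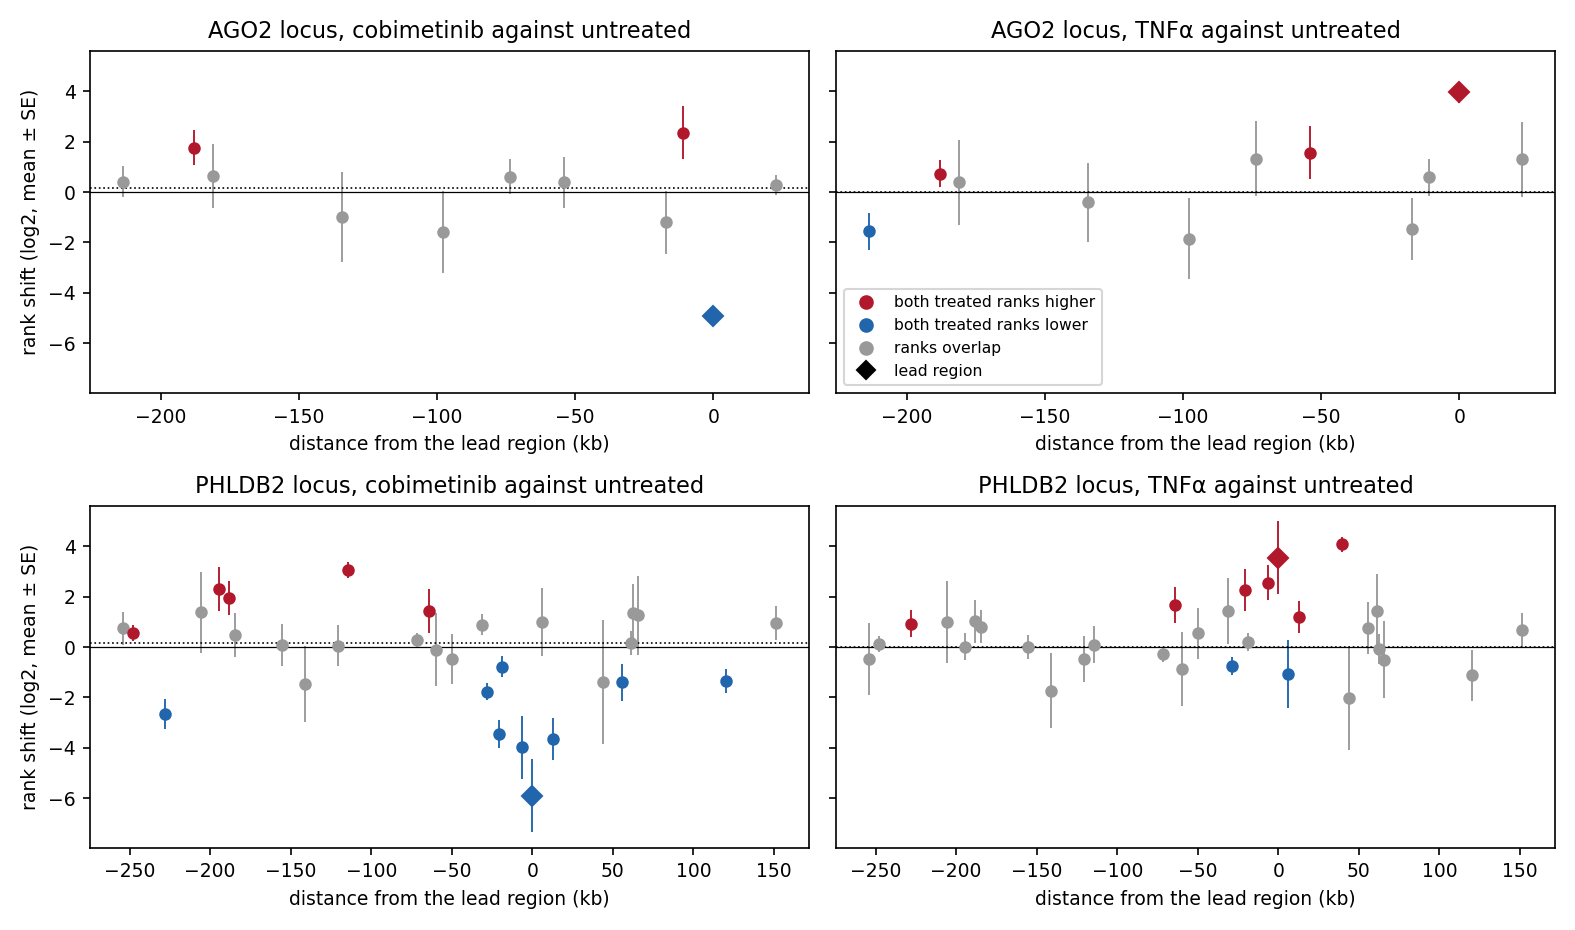
Rank shift (log2, mean ± SE, 2 libraries per condition) of each eligible region with a peak in either condition (a library without one counts as its list length plus 1) against its distance in kb along the chromosome from the lead, for cobimetinib (left) and TNFα (right), at AGO2 (top) and PHLDB2 (bottom); the dotted line is the median of all eligible regions. The PHLDB2 regions with shifts of -3.46 to -3.99 cluster around the lead, while no AGO2 neighbour is coloured as lower under cobimetinib.

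Most of the 227 regions were weak and poorly shared. At AGO2 102 of 113 and at PHLDB2 83 of 114 never entered the top 20000, and 69 and 58 regions had a peak in 1 library only. In the top 20000, the AGO2 window held 8 and 8 peaks in untreated cells, 4 and 4 under cobimetinib and 7 and 8 under TNFα. The PHLDB2 window held 22 and 18, 17 and 21, and 21 and 19. At the AGO2 edge, the outermost eligible region lay 87.6 kb from the gene body with a cobimetinib shift of 0.41, and the nearest one left out lay at 109 kb with 1.20. At PHLDB2 these were 97.9 kb with 0.94 and 110 kb with 0.90. The AGO2 region left out had no peak in either untreated library or in the first cobimetinib library, and ranked 19222.5 in the second. Its shift thus rested on list lengths and the second cobimetinib library.

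By the ranks in all 6 libraries, the 2 leads were most like each other: of all other eligible regions, each was the nearest to the other, with a Euclidean distance of 3.01 over the 6 log2 ranks. Both leads were chosen by their untreated and cobimetinib ranks, so closeness in those libraries was in part set by that choice. Next to the AGO2 lead came regions whose nearest coding starts were those of HS3ST1 (distance 3.59), CREB1 (3.65), PSD3 (3.65) and LRATD2 (3.83). Next to the PHLDB2 lead came a region in an intron of RUNX1 (4.28) and those near PSD3 (4.33), HS3ST1 (4.64) and LRATD2 (4.77). None of these 5 regions ranked below 20000 in a cobimetinib library, unlike both leads. The CREB1 region, for example, ranked 3493 and 4321.5 in untreated cells, 10624.5 and 10170 under cobimetinib and 64 and 74 under TNFα.

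Promoters of genes that act with AGO2 moved in both directions. Of 12 genes of the microRNA pathway, 11 had an eligible promoter region, against 11291 of 19702 protein-coding genes. Of these 11, 5 ranked higher and 1 lower under cobimetinib, against 22.2% and 12.4% of all promoters. DICER1, which cuts precursor microRNAs, had a shift of 2.07, TNRC6C, a silencing partner of Argonaute, 1.30, and AGO3 1.15. The DICER1 promoter ranked 3411.5 and 36797.5 in untreated cells and 2565.5 and 2790 under cobimetinib. Its shift thus rested mostly on the second untreated library, the one with narrow peaks. DGCR8, which recognises primary microRNAs in the nucleus, had a shift of -1.85. Under TNFα none was higher and 2, PRKRA and TNRC6B, were lower, against 12.9% and 14.1%. The median shifts of the 11 were 0.33 and -0.22, against 0.42 and 0.19 over all promoters.

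Of 12 genes that work with PHLDB2 at the cell cortex and its adhesions, all had an eligible promoter region, against 11291 of 19702 protein-coding genes. Under cobimetinib 6 of the 12 ranked higher and 1 lower, against 22.2% and 12.4% of all promoters. ITGA3, an integrin chain that binds laminin, had the largest shift, 3.67, followed by the liprin genes PPFIA1 at 1.58 and PPFIBP1 at 1.12. The ITGA3 region ranked 63957 and had no peak in untreated cells, 11715 and 4228 under cobimetinib, and 35329.5 and no peak under TNFα. It was thus eligible only through cobimetinib, and its shift used a list length for the missing peak. PPFIA1 ranked 20160 and 100417 in untreated cells, the deeper rank being in the library with narrow peaks. LAMB3, a chain of the laminin that these integrins bind, was the one that ranked lower, at -0.81, and it ranked higher under TNFα, at 0.61. LAMB3 thus had the order of the leads, with ranks of 7164.5 and 8297 in untreated cells, 12106 and 15062.5 with cobimetinib and 5457.5 and 4691.5 with TNFα. TNFα ranked 3 of the 12 higher and 1 lower, against 12.9% and 14.1%. The median shifts were 0.90 and 0.30, against 0.42 and 0.19 over all promoters, and the shared untreated libraries enter both. As a check of the line, 4 of 8 epithelial marker genes (CDX2, EPCAM, KRT8 and KRT18) had an eligible promoter region, and CDH1, VIL1, KRT20 and LGR5 had none. Of 8 genes of other cell types, 2 had one (COL1A1 and PECAM1). Over all protein-coding genes 11291 of 19702 had one, so the epithelial share was not above that of all genes. The check does not identify the line.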

How the data were processed

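The 6 H3K27ac peak lists of HCT116 cells were analysed. The deposited score of each peak is taken to be the whole-number value that the authors' peak caller, MACS2 (version 2.1.1), gave after alignment to hg38 with BWA (version 0.7.15). By the study's methods, peaks were called at a relaxed p-value without background, in paired-end and again in single-end mode, and both calls of a library were joined keeping the highest score, so a joined peak can be wider than either call. Every list starts at a score of 20. The second untreated library is labelled as resequenced and merged. Scores were turned into ranks within each list with pandas (version 2.3.3), and regions were built from peaks at most 100 bp apart. In rank shifts, a library without a peak took the length of its list plus 1. Genes and starts came from GENCODE release 44, and regions within 1 kb of a coding start were called promoters. Sequence was read from hg38, and words were counted on both strands. Scripts were tested on simulated data.

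The genes, regions and gene lists were chosen with earlier results of these data known. Named were the lead of each locus, regions in the top 20000 of at least 2 libraries, promoters in the window, the 5 regions nearest to each lead and, for each gene list, the largest shifts. A few others were named after their values were seen. Alternatives changed the tie rule, rank scale, joining distance, number of highest peaks and window, and left out each library in turn; same-numbered libraries were taken as pairs after the data were seen.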

Additional observations from a re-analysis of the deposited data

How the results depend on the processing

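Both leads kept the direction of all 3 shifts under all 14 alternatives. Not all of these could change a shift. Taking same-numbered libraries as pairs keeps the mean shift by construction, and leaving out a library of the third condition removes no rank used in that contrast. The cobimetinib shift ran from -5.20 to -4.69 at AGO2 and from -7.36 to -4.46 at PHLDB2, where the untreated libraries set the range. The TNFα shift ran from 3.60 to 4.33 at AGO2 and from 2.1 to 5.00 at PHLDB2, its ends being those without the second and without the first untreated library. The PHLDB2 shift between TNFα and cobimetinib, 9.46, became 9.72 with ranks as a percent of the list and 9.33 with joined regions ranked by their best score. The count of PHLDB2 neighbours lower under cobimetinib ran from 7 to 12, but without 1 untreated library the genome share rose as well, to 36.7% and 37.9%, against 35.7% and 42.9% of the neighbours. Other counts moved by over 1.5 times. With the 40000 highest peaks, the AGO2 neighbours higher under cobimetinib numbered 7, higher under TNFα 7 and higher under TNFα than cobimetinib 3, each of 36, against genome shares of 10.9%, 9.21% and 10.6%, and at PHLDB2 10 of 53 were higher and 5 lower under TNFα, against 9.21% and 5.25%. With no filter these were 8, 9 and 5 of 112 at AGO2, against 3.9%, 3.46% and 3.89%, and at PHLDB2, of 113, 8 were higher under cobimetinib, 11 higher and 7 lower under TNFα, against 3.9%, 3.46% and 2.18%. The AGO2 count of TNFα above cobimetinib was 2 of 10 with percent ranks, and that of TNFα below untreated was 2 of 10 when joining within 1000 bp. With 50 kb on each side, AGO2 had 1 of 7 higher under cobimetinib, and 1 of 7 higher and 0 of 7 lower under TNFα. With 200 kb, AGO2 had 4 of 16 higher under cobimetinib and PHLDB2 11 of 40 higher under TNFα. The genome shares do not depend on the window: 19.5% were higher under cobimetinib, and 17.1% higher and 9.56% lower under TNFα. Leaving out 1 library at a time gave, at AGO2, 0 to 4 lower and 2 to 4 higher under cobimetinib, 2 to 5 higher and 1 to 2 lower under TNFα, and 1 to 3 above cobimetinib under TNFα. At PHLDB2 it gave 5 to 10 higher under cobimetinib, and 6 to 13 higher and 2 to 9 lower under TNFα. In the same runs the genome shares were 11.6% to 37.9% lower and 19.8% to 44.2% higher under cobimetinib. Under TNFα they were 17.6% to 43.9% higher and 9.70% to 38.4% lower than untreated, and 20.7% to 30.1% above cobimetinib. A rule with 1 library on a side is easier to meet, and more or fewer regions were counted under the other filters and windows. No paired test was made, since the labels do not tie same-numbered libraries together. The differences between replicate 1 and replicate 2 correlated at 0.09 to 0.16 between conditions over 38218 regions, which share their library. Taking same-numbered libraries as pairs left the mean shifts as they were. The cobimetinib shifts in the 2 pairs were -4.59 and -5.26 at AGO2 and -7.43 and -4.38 at PHLDB2. Both pairs were lower under cobimetinib in 0 of 10 AGO2 and 9 of 30 PHLDB2 neighbours, against 14.7% of all regions, and no count moved by over 1.5 times. Rank differences compare positions within lists and not amounts of acetylation.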
